A study of Drosophila melanogaster with 3 samples.

Results

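Molecular chaperones and heat shock proteins were examined in wings of *Drosophila melanogaster* pupae, as a set of 35 genes out of 11981 genes named on the array. Members were chosen by gene symbol (names starting with Hsp and a digit, Hsc70, DnaJ or CCT, plus listed partners of Hsp70 and Hsp90), and each was represented by its probe set with the highest mean signal. Of these, 33 carried a symbol of the rule and 2, Stip1 and STUB1, are the genes that RefSeq also lists under the older names Hop and CHIP. The 3 arrays were 3 biological replicates of 1 group, namely wings of the Oregon R wild-type strain dissected at about 80 h after puparium formation from flies kept at 25 C. RNA came from batches of 40 flies, the stage was judged by eye from wing pigmentation, and the design held no second condition, so no contrast between conditions was made. The cytosolic Hsp90 gene Hsp83 and the small heat shock gene Hsp23 were not analysed here.

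Chaperones bind unfolded segments of other proteins and let them fold or be degraded. Hsp70 proteins cycle between a loose and a tight grip on clients, J-domain proteins deliver clients and trigger the ATP hydrolysis that closes the grip, and exchange factors open it again. Clients can then pass to Hsp90 or, for actin and tubulin, to the CCT chaperonin ring, while small heat shock proteins hold aggregating proteins without ATP. Some of these genes (among them the cognate, or Hsc, genes) are transcribed without heat shock, and others mainly after it through the transcription factor Hsf. Despite the word cytosolic in the working name of the set, 8 members encode proteins of the endoplasmic reticulum or of mitochondria.

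All values are log2 probe set signals on the deposited scale, which gave each array a trimmed mean of 500. Signals of different probe sets differ through their probes as well as their transcripts, so they set no order of abundance between genes. Each gene was compared with a reference level, the 95th percentile on the same array of 86 genes of other organs (odorant receptors, eggshell and accessory gland genes). The reference level was 6.80, 6.78 and 6.59 on replicates 1, 2 and 3. A distance from it still holds the differences between probes, so distances set no order of abundance between genes either. A gene is called above the reference where limma's one-sided moderated test gave an adjusted p under 0.05 over all named genes. Each SE and 95% interval uses limma's moderated variance of signal minus reference, whereas each SD is that of the gene's own log2 signals. The SE is therefore not the SD divided by the root of n. The labelled tissue was checked with 9 wing genes, which were all above the reference, where 45.3% of all named genes were. Also above it were 1 of 4 muscle, 2 of 5 neuronal and 2 of 5 haemocyte markers. So were 3 of 4 glial, 3 of 4 fat body and 2 of 3 tracheal markers. A contribution of these other cell types to the chaperone signals was not tested.

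Signal above the reference was found for 29 of the 35 chaperone genes, or 82.9%, where 45.3% of all named genes were called. Counting only the 33 genes with a symbol of the rule, 27 were called. Calls covered all 8 CCT subunits, all 6 J-domain proteins, all 4 partners of Hsp90 and Hsp70, and both exchange factors. The 6 genes not called were Hsc70-1, Hsp68, l(2)efl, Hsp60B, Hsp60C and Hsp60D. Among called members Hsp26 lay closest to the reference (0.88 over it), and among those not called Hsp60B did (-0.57).

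**Figure D1:**
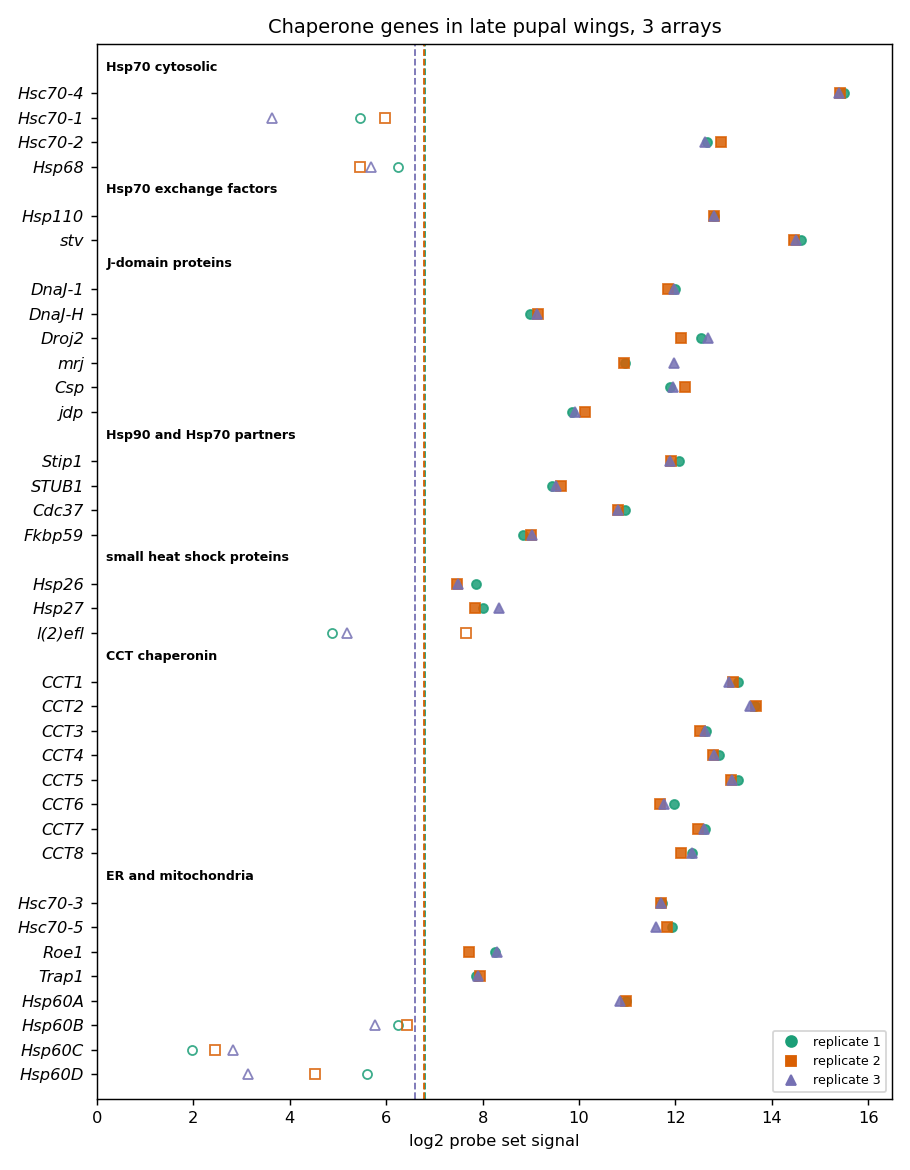
Log2 probe set signal (x axis) of the 35 chaperone genes on each of the 3 arrays, grouped by role. Filled symbols mark genes above the reference, open symbols genes that were not, and dashed lines the reference level of each array, 6.80, 6.78 and 6.59. All CCT symbols lie far to the right of the lines, whereas Hsc70-1, Hsp68, Hsp60B, Hsp60C and Hsp60D lie to their left on every array.

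Of the 4 cytosolic Hsp70 genes, the cognates Hsc70-4 and Hsc70-2 were called, and the cognate Hsc70-1 and the heat-inducible Hsp68 were not. Hsc70-4, the main constitutive Hsp70 of fly cells, read 15.50, 15.42 and 15.40 on replicates 1, 2 and 3. It lay 8.71 ± 0.12 (SE, n = 3) over the reference (limma adjusted p = 8.87e-05). Hsc70-2, another cognate gene, read 12.65, 12.94 and 12.62 and lay 6.01 ± 0.14 (SE) over the reference (limma adjusted p = 8.87e-05). Both genes were over the reference on every array, with ranges of 1.07-fold and 1.25-fold between arrays. The cognate Hsc70-1 read 5.46, 5.98 and 3.62, which is below the reference on each array, and so were its other 2 probe sets. Hsp68, a heat-inducible relative of Hsp70, read 6.24, 5.46 and 5.69 and was not called either (-0.93 against the reference, 95% interval from -1.53 to -0.32). Hybridisation of one paralog's transcript to another's probes was not tested.

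The heat-inducible Hsp70 copies were measured only by probe sets that list several copies, so no single copy can be named and none entered the counts. A probe set for the pair Hsp70Aa and Hsp70Ab read 8.47, 8.80 and 9.07 and was over the reference on all 3 arrays, by 2.05 on average. In contrast, the 3 probe sets that list only Hsp70B copies had mean signals of 4.69, 4.60 and 6.08 and were below it on every array. The copies are near-identical in sequence, and the difference between their probe sets was not tested.

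Both genes for Hsp70 exchange factors were above the reference. Hsp110, which encodes the Hsp70-related exchange factor of the cytosol, read 12.80, 12.80 and 12.79. Its SD of 0.0045 was the smallest of the 29 called members, and it lay 6.07 ± 0.13 (SE, n = 3) over the reference (limma adjusted p = 8.87e-05). The gene stv encodes a BAG-domain partner of Hsc70-4, known from muscle for the clearance of damaged filamin. It read 14.61, 14.46 and 14.51, a range of 1.11-fold, and was 7.80 ± 0.13 (SE) over the reference (limma adjusted p = 8.87e-05). The signals of both genes were far over the reference on all 3 arrays.

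J-domain genes were all called, and they included the called member that differed most between arrays. DnaJ-1, the Hsp40 that partners Hsp70, read 11.99, 11.85 and 11.97. Droj2, a relative of the bacterial DnaJ type, read 12.52, 12.12 and 12.68. Replicate 2 was the low array for Droj2, 1.47-fold under replicate 3. The gene mrj encodes a J protein known for holding back aggregation of polyglutamine proteins, and read 10.95, 10.94 and 11.98. Replicates 1 and 2 agreed closely and replicate 3 stood apart, 1.03 over the mean of the others. The mrj signal was nonetheless over the reference on each array, by 4.57 ± 0.33 (SE, n = 3; limma adjusted p = 0.000642).

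Csp encodes the cysteine string protein, a J protein of synaptic and other secretory vesicles, and read 11.89, 12.19 and 11.95. DnaJ-H read 8.98, 9.14 and 9.13, and lay 2.36 ± 0.14 (SE, n = 3) over the reference (limma adjusted p = 0.000391). In the RefSeq annotation DnaJ-H overlaps Sirt1, and the part of the signal that belongs to each was not tested. The small J-domain gene jdp read 9.86, 10.11 and 9.91 with its chosen probe set. For Csp and jdp replicate 2 was the high array and replicate 1 the low, the opposite order to Droj2 between replicates 1 and 2.

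The probe sets of jdp did not all give the same answer. A second probe set read 8.80, 9.41 and 9.26, also over the reference on every array. The last read 6.30, 7.14 and 4.73, over the reference on replicate 2 alone, with a mean of -3.91 against the chosen probe set. It is also the only jdp probe set outside the class that Affymetrix marks as shared by several transcripts, and with it alone jdp was not called (-0.69 against the reference). Which transcripts of jdp each probe set reads was not tested. For Hsc70-1 and l(2)efl, the other members with several probe sets, all 3 probe sets had means below the reference.

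**Figure D2:**
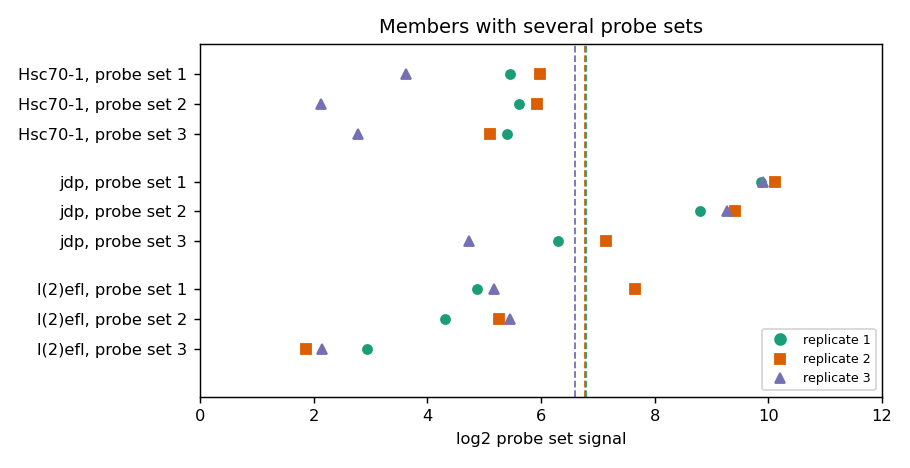
Log2 signal (x axis) of every probe set of the 3 members with several, on each of the 3 arrays, with dashed lines at the reference level of each array. The upper pair of jdp probe sets lies over the lines and the last straddles them, while for l(2)efl only the replicate 2 value of its first probe set, 7.66, crosses them.

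Partners that act between Hsp70, Hsp90 and the proteasome were all called. Stip1, whose protein bridges Hsp70 and Hsp90, read 12.07, 11.91 and 11.88 and lay 5.23 ± 0.12 (SE, n = 3) over the reference (limma adjusted p = 8.87e-05). STUB1, a ubiquitin ligase that binds both chaperones, read 9.45, 9.63 and 9.51. Cdc37, which brings protein kinases to Hsp90, read 10.96, 10.81 and 10.81. Their ranges between arrays stayed between 1.11-fold and 1.14-fold. Fkbp59, an immunophilin of the Hsp90 complex, read 8.84, 9.01 and 9.03 (2.24 ± 0.15 over the reference, SE, limma adjusted p = 0.00048).

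The 3 small heat shock genes of the set were near the reference or below it. Hsp22 entered no count because its probe sets also list CG4456, and these had means of -0.42 and -3.07 against the reference. Hsp26 read 7.86, 7.46 and 7.50, which is 0.88 ± 0.15 (SE, n = 3) over the reference, or 1.84-fold (limma adjusted p = 0.00704). Hsp27 read 8.00, 7.84 and 8.33, and was 1.34 ± 0.20 (SE) over the reference, or 2.52-fold (limma adjusted p = 0.00502). Both were over the reference on each of the 3 arrays, with replicate 2 the lowest. These calls depended on the choice of reference. With the 99th percentile Hsp26 lay at -0.16 and Hsp27 at 0.29 against it (limma adjusted p = 0.326 for Hsp27), and with the reference taken from eggshell and accessory gland genes they lay at 0.13 and 0.59 (limma adjusted p = 0.467 and 0.0566).

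The alpha-crystallin relative l(2)efl was not called. Its chosen probe set read 4.88, 7.66 and 5.18, over the reference on replicate 2 alone. Its SD of 1.52 was the largest of all 35 members, and the 95% interval of its difference from the reference ran from -2.77 to 1.13. The other 2 probe sets of l(2)efl did not share the high value, at 5.26 and 1.87 on replicate 2. In the RefSeq annotation l(2)efl lies within the span of St3.

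The 8 subunits of CCT, the ring chaperonin that folds actin and tubulin, were all far over the reference. Their differences from the reference ran from 5.08 to 6.90, and all 8 had a limma adjusted p between 8.87e-05 and 9.22e-05. CCT1 read 13.30, 13.19 and 13.12, and CCT5 read 13.30, 13.15 and 13.17. CCT2 read 13.65, 13.67 and 13.54. Each of these subunits kept within 1.14-fold between arrays. CCT3 read 12.64, 12.51 and 12.61, CCT4 12.91, 12.79 and 12.79, and CCT7 12.62, 12.47 and 12.60. CCT6 read 11.98, 11.68 and 11.75, the widest range of the subunits at 1.23-fold. CCT8 read 12.35, 12.12 and 12.35.

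Most subunits had the same high array, with small differences, while the low array depended on the scaling. Replicate 1 was the highest array for 6 of 8 subunits and the lowest for 0, where 38.3% of all genes above the reference were highest on it. Replicate 2 was the lowest for 6 of 8 (CCT3, CCT4, CCT5, CCT6, CCT7 and CCT8), where 33.9% of all called genes were lowest on it. The median deviation of the subunits from their own means was 0.07 on replicate 1, -0.07 on replicate 2 and -0.04 on replicate 3. Over all genes above the reference these medians were 0.02, 0.01 and -0.03. With quantile normalization the count highest on replicate 1 was 7 of 8, and with arrays centred on the median of the called genes it was 6. With quantile normalization replicate 2 was the lowest for 4 subunits and replicate 3 for the other 4, with median deviations of -0.04 and -0.07. With centred arrays replicate 2 was the lowest for 6. Of the 29 called members 15 were highest on replicate 1, and these counts describe 3 arrays and carry no test.

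**Figure D3:**
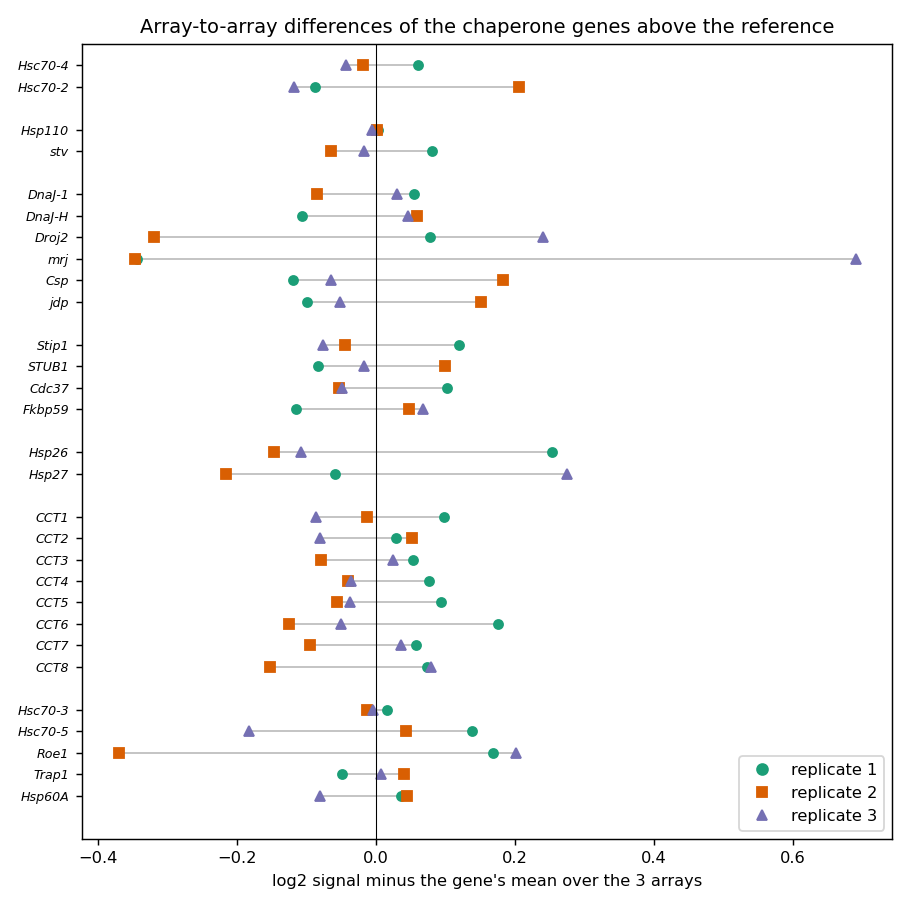
Log2 signal of each called chaperone gene minus its mean over the 3 arrays (x axis), with 1 symbol per array, genes in rows by role and a grey line for the range. Most genes stay within 0.2 of their mean, replicate 1 lies to the right for most CCT subunits, and mrj on replicate 3 stands 0.69 over its mean.

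Chaperones of the endoplasmic reticulum and mitochondria were called in 5 of 8 cases (62.5%), beside 45.3% of all named genes. Hsc70-3, the fly BiP of the endoplasmic reticulum, read 11.73, 11.70 and 11.71, a range of 1.02-fold. Hsc70-5, the mitochondrial Hsp70 known as mortalin, read 11.93, 11.83 and 11.60. Hsp60A, the general mitochondrial chaperonin, read 10.97, 10.98 and 10.85. All 3 lay at least 4.21 over the reference, and their limma adjusted p ran from 8.87e-05 to 9.58e-05. Roe1, the GrpE-like exchange factor of mitochondrial Hsp70, read 8.27, 7.73 and 8.30, with replicate 2 the lowest by 1.49-fold against replicate 3. Trap1, the mitochondrial Hsp90, read 7.86, 7.94 and 7.91. The calls of Roe1 (1.38 over the reference, limma adjusted p = 0.00539) and Trap1 (1.18 over it, limma adjusted p = 0.00219) were lost with the 99th percentile as reference, at 0.33 and 0.14 (adjusted p = 0.251 and 0.594). Roe1 also narrowly missed the threshold with the eggshell and accessory gland reference (0.63, limma adjusted p = 0.0528).

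The remaining Hsp60 paralogs were below the reference on every array, in contrast to Hsp60A. Hsp60B, known for its role in sperm individualisation, read 6.25, 6.44 and 5.77, which is -0.57 against the reference (95% interval from -1.04 to -0.10). Hsp60C, needed in fly tracheal development and spermatogenesis, read 1.98, 2.45 and 2.82. Hsp60D read 5.60, 4.52 and 3.13, and in the RefSeq annotation it lies within the span of CG42784. At such low signals the range between arrays was 5.55-fold for Hsp60D, 1.80-fold for Hsp60C and 1.59-fold for Hsp60B.

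Spread between arrays was small for most called members. Their median SD was 0.09, against 0.16 over all called genes, and 21 of 29 had an SD under the latter. SD falls as signal rises, so called genes were also split at 16-fold over the reference. That single split matches distances only coarsely, and a difference in signal between members and other genes remains possible within each part. Among genes at least 16-fold over the reference the median SD was 0.08 for 21 members and 0.11 for all 1467 genes. In that range 76.2% of members and 69.8% of all genes had an SD under the median of all called genes, so the shares lay closer together than over all signals. Among called genes less than 16-fold over the reference the median SD was 0.12 for 8 members and 0.18 for all 3965 genes. There the shares lay further apart, at 62.5% of members and 42.7% of all genes. Of the called members only mrj ranged by at least 2-fold between arrays (1 of 29, or 3.45%), where 2.06% of all called genes did. That count was 0 without replicate 3 and also with quantile normalization. Over all called genes, 112 had such a range, and the count was 16 without replicate 3, 55 without replicate 2 and 86 without replicate 1.

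**Figure D4:**
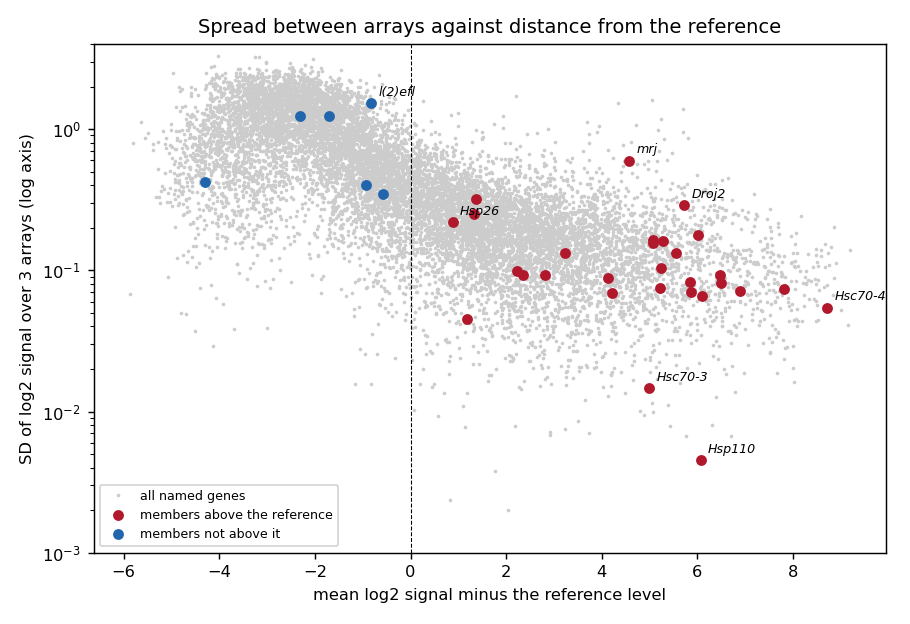
SD of log2 signal over the 3 arrays (y axis, log scale) against the mean difference from the reference (x axis, log2) for all named genes in grey and chaperone genes in colour. The called members sit mostly in the lower part of the cloud, with Hsp110 at an SD of 0.0045 and mrj at 0.60, and the members not called lie left of 0.

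Hsf, other co-chaperones, prefoldin genes and other stress response genes were counted together as 36 related genes. Of these 32 were called, beside the 45.3% of all named genes. Hsf, the transcription factor of the heat shock response, read 10.98, 10.82 and 10.60 and lay 4.08 ± 0.13 (SE, n = 3) over the reference (limma adjusted p = 0.000104). Of 12 further co-chaperones 11 were called, and the exception was shu, a germ line immunophilin, at 5.72, 6.36 and 2.39. The Hsp90 co-chaperone p23 read 11.37, 11.45 and 11.29, and the myosin chaperone gene unc-45 read 10.92, 10.46 and 10.71. Tpr2, which also encodes a J-domain protein, read 9.90, 9.83 and 10.62. Tpr2 was highest on replicate 3, as were 2 of the 6 J-domain members, mrj and Droj2, and 24.7% of all called genes. Dpit47, a TPR partner of Hsp90, read 8.04, 7.59 and 8.40. All 7 genes of prefoldin, which hands actin and tubulin to CCT, and of its relatives were called. Their signals ran from uri, a relative, at 7.30, 7.50 and 7.36 to Pfdn2 at 13.40, 13.53 and 13.28.

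The 36 related genes include 16 other stress response genes, of which 13 were called, beside 45.3% of all named genes. Among those called, Ire1 lay 0.57 over the reference (limma adjusted p = 0.0262) and Keap1 0.60 over it (limma adjusted p = 0.0385). The metallothionein MtnA read 14.69, 14.58 and 14.62, the catalase gene Cat 14.80, 14.63 and 14.59, and the glutathione transferase gene GstD1 14.76, 14.60 and 14.71. These genes of metal and oxidative defence varied by little between arrays. The exceptions were the DNA damage gene Gadd45 (4.43, 6.22 and 6.43), MtnC (2.71, 4.58 and 2.50) and the humoral stress factor gene TotC (1.41, 5.41 and 4.85), each below the reference on all 3 arrays.

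**Figure D5:**
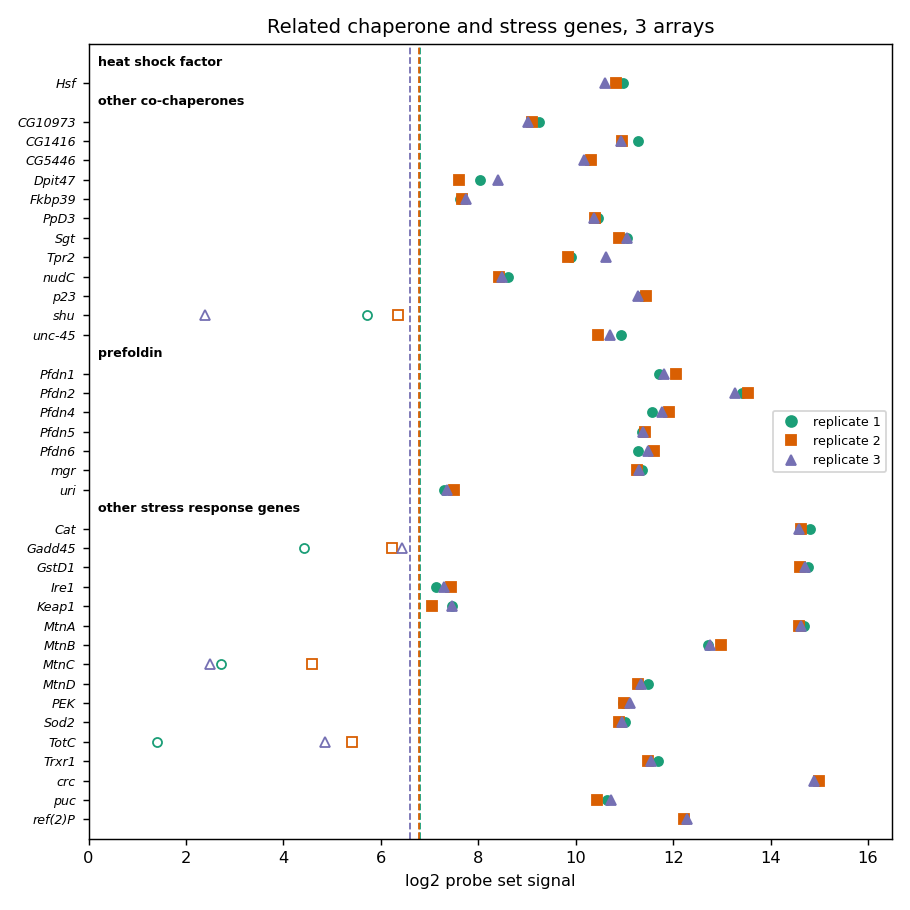
Log2 probe set signal (x axis) on each of the 3 arrays for Hsf, 12 co-chaperones, 7 prefoldin genes and 16 other stress response genes, with filled symbols for genes above the reference and dashed lines for the reference level of each array. Open symbols (shu, Gadd45, MtnC and TotC) lie left of the lines, and Tpr2 shows replicate 3 apart from the other arrays.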

How the data were processed

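Wings of 3 replicates of 1 group were profiled on 1 Affymetrix array each. The file deposited by the authors gave 18952 probe sets an intensity each, on a linear scale. MAS5 and RMA are named per the submitters' processing notes, without role or version, and the genome build is not given in the sources used here. Every array had a trimmed mean of 500 after 2% was removed at each end, so the log2 intensity values, computed here from the deposited signals, were not normalized further. The number of arrays limits the precision. Nothing states separate animals beyond the label of biological replicates.

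Genes were named through the platform annotation: 13646 probe sets had 1 symbol and 402 several, which named no gene. All 35 members matched RefSeq (Release 6) by gene identifier and symbol. Of the chosen probe sets 15 ended in _s_at and 3 in _a_at, endings for probes shared by several transcripts. The rule of naming allowed every member, Hsf, and a few related genes by call.

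The reference held 56 odorant receptor and 30 eggshell or accessory gland genes, of which 1 was itself called and 2 had an unadjusted p under 0.05. limma 3.58.1 in R 4.3.3 was fitted to log2 signal minus the reference for all 11981 genes (prior SD 0.315 with 1.49 degrees of freedom), with Benjamini-Hochberg adjustment. The test leaves out the uncertainty of the reference level. Tested on simulated data for this comparison over 11981 genes, it called 78% of 50 genes set 0.5 over the reference, 98% of 50 set 1 over it and 0.173% of 5781 genes at or below it. Those 5781 genes kept their measured means, so the share mixes genes far under the reference with genes near it. It gives no rate of false calls close to the reference. Noise was drawn separately for each gene, so a shift of the reference shared by all genes was not simulated. The members and gene lists were chosen with earlier results of these data known. Alternatives covered the reference, probe sets, offset, filter, normalization, trend and replicates left out. Other steps used Python 3.11.15 with numpy 2.4.6, pandas 2.3.3 and matplotlib 3.10.9.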

Additional observations from a re-analysis of the deposited data

Results flagged for a closer look

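Of 11 probe sets that list a chaperone symbol beside another gene, and so stand outside the counts, 4 were over the reference on all 3 arrays. This count rests on the signals alone, without a test, so it cannot be set beside the 45.3% of all named genes called. The probe set for Hsp70Aa and Hsp70Ab lay 2.05 over the reference on average. A probe set listing Hsp60B beside Ncc69 lay 5.93 over it, whereas the probe set of Hsp60B alone was at -0.57. Of 3 probe sets listing DnaJ-60 beside CG42568, a pair lay 3.21 and 1.48 over the reference, and the other was at -0.60. Which listed gene gives each signal was not tested.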

How the results depend on the processing

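The count of called chaperone genes was 25 to 29 of 35 in every alternative that kept all 35 measured. In those alternatives 33.4% to 47.7% of all named genes were called. Without probe sets ending in _s_at, _x_at or _a_at the count was 14 of 19 members left (73.7%), beside 38.4% of all named genes. The count was lower there because fewer members had a probe set. Under that setting jdp lay at -0.69 against the reference, and with the 99th percentile as reference Hsp26 lay at -0.16. Of the 29 called members 24 kept their call in every alternative run for them, and the 6 other members were not called in any run for them. Of the 36 related genes 32 were called in the main setting. With the 99th percentile as reference 27 were, and with the eggshell and accessory gland reference also 27. In those alternatives 33.4% and 37.6% of all named genes were called. The number of members with a range of at least 2-fold was 0 with quantile normalization and 0 to 1 with a replicate left out. Over all called genes that number was 216 when the probe sets of a gene were averaged and 16 to 86 with a replicate left out. The scaling alternatives for the order of arrays were chosen after seeing the data. No paired analysis was possible because all arrays belong to 1 group. With 3 arrays, genes whose signals lie close to the reference cannot be placed firmly on either side of it.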
